A study of Mus musculus with 4 samples.

Results

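The 8 genes described here move cholesterol out of macrophages or set how much of it they make and take up: Abca1, Abcg1 and Apoe (efflux), Nr1h3 and Nr1h2 (receptors), and Srebf2, Srebf1 and Mylip (synthesis and uptake). They were listed by name, as 8 of 55450 genes annotated in GENCODE M21 on the mouse genome build mm10, and every peak that overlapped a gene body or the 10 kb on either side of it was taken. This gave 168 peaks in 47 regions, out of 71243 regions in the series. ATAC-seq, in which a transposase cuts open chromatin, had been performed with bone marrow-derived macrophages (BMDMs) at day 7 per the study's methods (6 to 8 days in L929-conditioned medium per the labels), from C57BL/6 mice that were 8 to 10 weeks old in the study. WT mice were H3f3a fl/fl H3f3b fl/fl without Cre, and H3.3 cKO mice carried the same floxed alleles together with LysM cre/cre, so both groups share the floxed genes for histone H3.3. Cre is expressed from the Lyz2 locus and acts in myeloid cells, and each genotype had 2 libraries labelled as biological replicates.

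Cholesterol leaves a macrophage through ATP-binding cassette transporters, ABCA1 loading it onto lipid-poor apolipoprotein A-I and ABCG1 onto formed HDL particles, while secreted apolipoprotein E also accepts it. The liver X receptors (LXRs) sense oxysterols and, paired with a retinoid X receptor (RXR), bind a repeat of the half-site AGGTCA with 4 bases between the copies, called a DR4 element, at genes such as Abca1, Abcg1, Apoe, Srebf1 and Mylip. When sterol is scarce, SREBP-2 and SREBP-1 are cleaved from the membrane and bind sterol elements at genes of synthesis and LDL uptake. MYLIP, also called IDOL, marks the LDL receptor for breakdown.

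The letters of 7 sites in or beside these regions are printed. All but the last mark where elements of this pathway fall among the sites described below. The last is an AP-1 motif, which is not an element of this pathway. The first 5 hold a DR4 element with at most 2 mismatches to its 12 half-site bases, and the capitals mark the element with its spacer. Each is read 5′ to 3′ on the strand given, from the RefSeq mm10 assembly.
Abcg1, region lost in cKO, chr17:31075698-31075727, forward strand: ctgagagAGGTTAATGTAGGTCAtcttggg
Abcg1, second region of the gene, chr17:31058874-31058903, reverse strand: aggcaagAGGTAACTGTCGGTCAaatcctg
Abcg1, intron, chr17:31067176-31067205, reverse strand: cctacagAGGTTACTACAGGGCAaacagcc
Abca1, intron, chr4:53150827-53150856, forward strand: cctaatgAGGTTACTAAAGGCCAggagacc
Apoe, beyond the 3′ end, chr7:19693512-19693541, reverse strand: tgccaggGGGTCACTGTCGGTCAatgacag
Srebf1, sterol element TCACNCCAC in capitals, chr11:60222852-60222874, reverse strand: cgccgcgTCACCCCACtcggggg
Abca1, AP-1 motif TGAGTCA in capitals, chr4:53117742-53117762, forward strand: gagagctTGAGTCAtctagca

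The match at the lost Abcg1 region had 1 mismatch and the other DR4 matches had 2. Windows of 301 bases around each region's summit held a DR4 match in 4 of 47 regions (8.51%), against 3.66% of all 71243 regions, and the sterol element in 1 region (2.13%, against 1.25%). The PU.1 motif GAGGAAGT, bound by the main macrophage lineage factor, was found in 3 regions (6.38%, against 11.8%), and the AP-1 motif TGAGTCA or TGACTCA in 8 (17.0%, against 15.1%). Both strands were searched, the AP-1 forms being each other's reverse complement, and no matches of different motifs overlapped at these genes. The Apoe site lies in the whole region but outside its summit window. With whole regions searched, DR4 matches were found in 5 of 47 regions (10.6%, against 6.57%), the sterol element in 2 (4.26%, against 2.41%), PU.1 in 3 (6.38%, against 14.6%) and AP-1 in 9 (19.1%, against 19.7%). This search leaves out the Abca1 site, which starts just past its region's end, and adds a match with 2 mismatches in the Abcg1 start region:
Abcg1, start region, chr17:31057967-31057996, reverse strand: cctctccAGAGCACCCCAGGTCAgcgcccg

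The RefSeq promoter table held 12 promoters of 7 of the genes, without Abcg1, and none of the 4 motifs was found in them, against 3.02% of 32851 promoters for DR4. A match of letters is a description, and binding was not measured.

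The 4 peak lists held between 51955 and 64939 peaks, with the longest list in WT replicate 2 and the shortest in cKO replicate 1. Read depths are unknown. The caller kept no peak with an area under 200, so a list lacks any site that fell slightly short of this limit. Each peak was therefore given by the percentile of its area among all peaks of its own library, and a region by its largest peak. A weak site that enters a longer list pushes every stronger site up in percentile. Of the 32 regions called in all 4 libraries, 24 had their highest value in WT replicate 2 and 20 had their lowest in cKO replicate 1. As a check of the labels, the peak over exon 2 of H3f3a, which the study floxed, was called at percentiles 5.02 and 19.1 in WT and in neither cKO library. This check is weak, since the peak ranked low in WT and 7.25% of all regions had the same pattern. H3f3b, floxed from exon 1 to 4, still had peaks in both cKO lists: a region over the gene body (chromosome 11, 116023771 to 116024892) was at 94.2 and 95.5 in WT and at 87.0 and 81.4 in cKO, and the promoter region (116027762 to 116028173) was at 23.7 and 34.3 in WT and at 28.7 and 42.5 in cKO. Complete loss of H3f3b peaks was therefore not seen in these lists, although the gene body region ranked lower in both cKO libraries. The study reported that deletion of H3f3b varied among its cKO samples, from partial to complete. It also reported depletion of H3.3 in cKO BMDMs by qRT-PCR, RNA-seq and western blot. All 10 macrophage marker genes had a peak over a start site in every list. Of the other marker lists, B and T cell genes had none, and neutrophil genes had 2 of 5, endothelial genes 2 of 3, dendritic cell genes 2 of 3 and erythroid genes 1 of 3 in each list, with no peak at Ly6g, Elane, Mpo or Cdh5. Fibroblast genes had 0 of 3 in WT replicate 1 and 1 of 3 in the other libraries.

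Of the shared regions, 9 of 11 at Abca1, 2 of 3 at Abcg1 and all 3 at Srebf2 ranked lower in cKO. So did 3 of 6 at Nr1h3, some of them at the neighbouring genes Madd and Acp2, while both regions of Nr1h2 ranked higher. Abcg1 alone had fewer peaks in both cKO lists than in both WT lists by more than 1 peak. Of the 47 regions at the 8 genes, 32 were called in all 4 libraries, and 5 were lost (present in the 2 WT lists and absent from the 2 cKO lists), which is 10.6% against 7.25% of all regions. No region was gained (called in both cKO libraries alone), against 3.72% of all regions. In 19 of the 32 shared regions (59.4%), both cKO percentiles were below both WT ones, against 35.1% of all 44820 shared regions. In 3 (9.38%), both were above, against 22.2%. The median difference, cKO mean minus WT mean, was -6.93 percentile points, and -1.10 over all shared regions. With lists of equal length, 16 of 30 shared regions were lower and 2 were higher, against 35.7% and 36.8% of all shared regions, and 2 of 42 regions were lost against 7.30% of all regions, so the lost count was then below the background. With peaks above the median area of their list, 0 of 26 were lost against 7.06%. In these bulk libraries, fewer cells with an open site and less opening in each cell cannot be told apart. With 2 libraries per genotype an exact permutation test over 6 assignments cannot give a p below 0.33, so differences are described by whether the libraries of the genotypes overlap.

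The counts of the 3 groups of genes are set beside the shares over all regions, 35.1% lower, 22.2% higher and 7.25% lost. At the efflux genes, 11 of 16 shared regions were lower (68.8%) and 1 was higher (6.25%) in cKO. Of their 25 regions, 4 were lost (16%), and the median difference was -9.16 points. Abca1 held 9 of the 11 lower regions, Abcg1 held 2 and Apoe none. By largest peak, the 2 shared Apoe regions had a median difference of 2.78 points. Of the lost regions, 3 were at Abcg1 and 1 at Abca1. The 4 lists held 25 and 25 peaks at the efflux genes in WT, and 17 and 23 in cKO. At the synthesis and uptake genes, 5 of 8 shared regions were lower (62.5%) and none was higher. Of their 12 regions, 1 was lost (8.33%), near the share over all regions, and the median difference was -6.00 points. At the receptor genes, 3 of 8 shared regions were lower (37.5%) and 2 were higher (25%), both near the shares over all shared regions. None of the receptor regions was lost, and the median was -1.76 points. Whether these groups differ from each other was not tested.

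**Figure D1:**
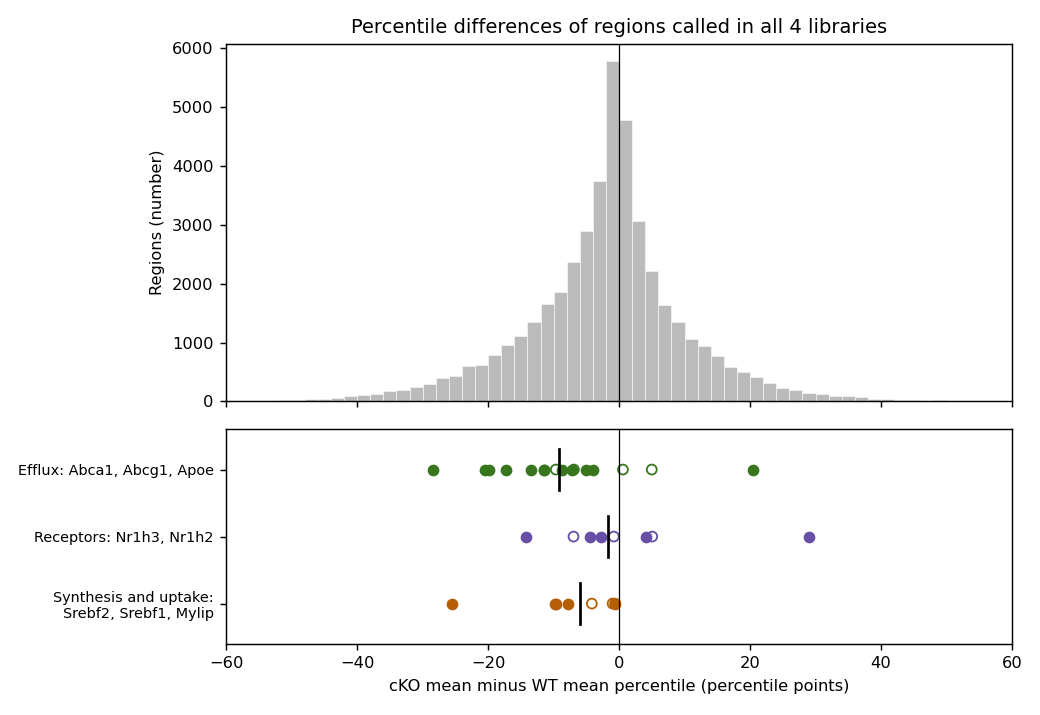
The upper panel is a histogram of the cKO mean minus WT mean percentile (percentile points) of the 44820 regions called in all 4 libraries. The lower panel shows the 32 shared regions at the 8 genes by group, with filled points where the libraries of the genotypes do not overlap, open points where they do, and a bar at the median; the medians are -9.16 for efflux, -1.76 for receptors and -6.00 for synthesis and uptake.

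Abca1 (ENSMUSG00000015243.4, chromosome 4, 53030787 to 53159895, reverse strand) had 14 regions, the most of the 8 genes. Of its 11 shared regions, 9 were lower in cKO, 1 was higher and 1 overlapped. The region over the start site (53158647 to 53160388) had percentiles of 96.1 and 96.9 in WT and of 74.8 and 77.1 in cKO. It was called as 1 peak in each WT library and as 2 separate peaks in each cKO library, the weaker ones at 63.9 and 65.3. The percentiles of the largest peak therefore compare peaks of unlike extent. By the summed area of its peaks, the region was at 95.7 and 96.7 in WT and at 89.0 and 89.6 in cKO, so the difference of -20.5 points became -6.92, and the libraries still did not overlap.

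**Figure D2:**
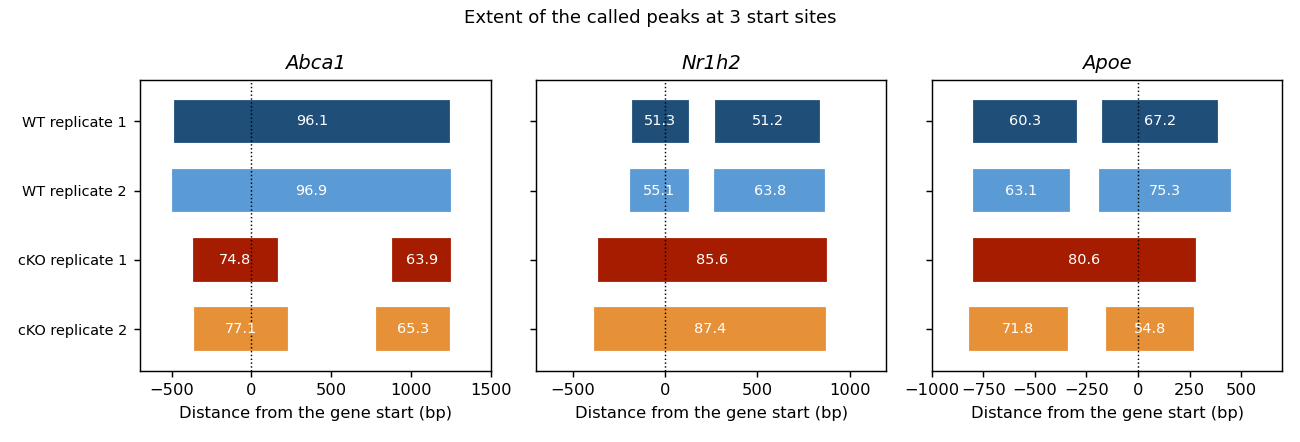
Extent of every called peak around the starts of Abca1, Nr1h2 and Apoe in each library, against the distance from the gene start (bp, positive in the direction of transcription; dotted line at the start), with the percentile of its area printed on the peak. Abca1 is 1 peak in WT and 2 in cKO, Nr1h2 is 2 peaks in WT and 1 in cKO, and Apoe is a single peak in cKO replicate 1 alone.

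The next sites lie in the introns after the start, from 4.28 to 10.8 kb into the gene. The region centred 10017 bp from the start (53149662 to 53150094) was at 74.7 and 76.5 in WT and at 41.5 and 52.8 in cKO. This difference of -28.5 points was the lowest of the 32 shared regions. On the scale of peak area per 1000000 units of the list total, it held 23.1 and 20.9 in WT and 9.93 and 10.8 in cKO, a log2 difference of -1.09. Its neighbour 10.8 kb in (53148919 to 53149271) was at 29.0 and 37.0 in WT and at 9.25 and 16.9 in cKO. A region at 4.28 kb (53155381 to 53155847) was at 55.0 and 66.0 in WT, and at 50.7 and 47.4 in cKO, a difference of -11.4 points that was -5.96 without WT replicate 2. Between them, the region beside the DR4 match printed above (53150557 to 53150833) was at 16.4 and 25.1 in WT and at 6.10 and 21.6 in cKO, and the libraries overlapped.

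A second set of Abca1 sites lies 32.9 to 43.7 kb into the gene. Its strongest members, at 37.7 and 39.3 kb, were between 87.5 and 90.1 in WT and between 82.3 and 85.8 in cKO. The region at 32.9 kb (53126790 to 53127204) was at 39.7 and 41.9 in WT and at 20.2 and 34.5 in cKO, a difference of -13.5 points that was -6.33 without cKO replicate 1 and -20.6 without cKO replicate 2. The intronic site at 42.1 kb (53117669 to 53117923), which holds the AP-1 motif printed above, was the region that was higher in cKO. It was at 2.90 and 6.09 in WT and at 26.5 and 23.5 in cKO. It is a narrow region of 255 bp, and with lists of equal length it was no longer called in all 4. AP-1 motifs were also found in the Abca1 regions at 4.28 and 39.3 kb, which were lower in cKO. At the 8 genes, 3 of the 19 lower regions and 2 of the other 13 shared ones held an AP-1 motif in the summit window. Farther in, a region of 284 bp at 70.7 kb (53089033 to 53089316) was lost, at 5.73 and 26.6 in WT. It held 2 PU.1 motifs within its summit window.

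Abcg1 (ENSMUSG00000024030.7, chromosome 17, 31057675 to 31117988, forward strand) had 7 regions, of which 3 were lost. The lists held 7 and 7 peaks there in WT, and 3 and 4 in cKO. All 3 lost regions are intronic. The farthest, 31.2 kb from the gene start (31088736 to 31089067), was at 18.2 and 43.5 in WT and held a PU.1 motif 5 bases from its summit. The region at 18.0 kb (31075466 to 31075834) was at 1.70 and 34.3 in WT. It holds the DR4 match with 1 mismatch printed above, 7 bases from the summit. The third, at 17.2 kb (31074696 to 31074961), was at 11.3 and 7.88. All 3 ranked below percentile 20 in WT replicate 1.

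The shared Abcg1 regions lie within 3.23 kb of the gene start. The region over the start (31057452 to 31058040) was at 17.1 and 40.4 in WT and at 19.4 and 18.8 in cKO, so the libraries overlapped, and the difference of -9.67 points was 2.02 without WT replicate 2 and -21.3 without WT replicate 1. The region 1.19 kb in (31058602 to 31059133), classed as promoter of the small RNA gene Gm25447 and holding a DR4 match, was at 47.3 and 53.6 in WT and at 40.2 and 37.9 in cKO. The region 3.23 kb in (31060664 to 31061154) was at 39.8 and 51.6 in WT and at 23.8 and 33.1 in cKO, a difference of -17.2 points that was -11.4 without WT replicate 2. Both of these were lower in cKO, without overlap. The intronic site at 9.61 kb that holds another DR4 match was called at 1.62 and 5.46 in WT, and in cKO only in replicate 2, at 20.8.

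**Figure D3:**
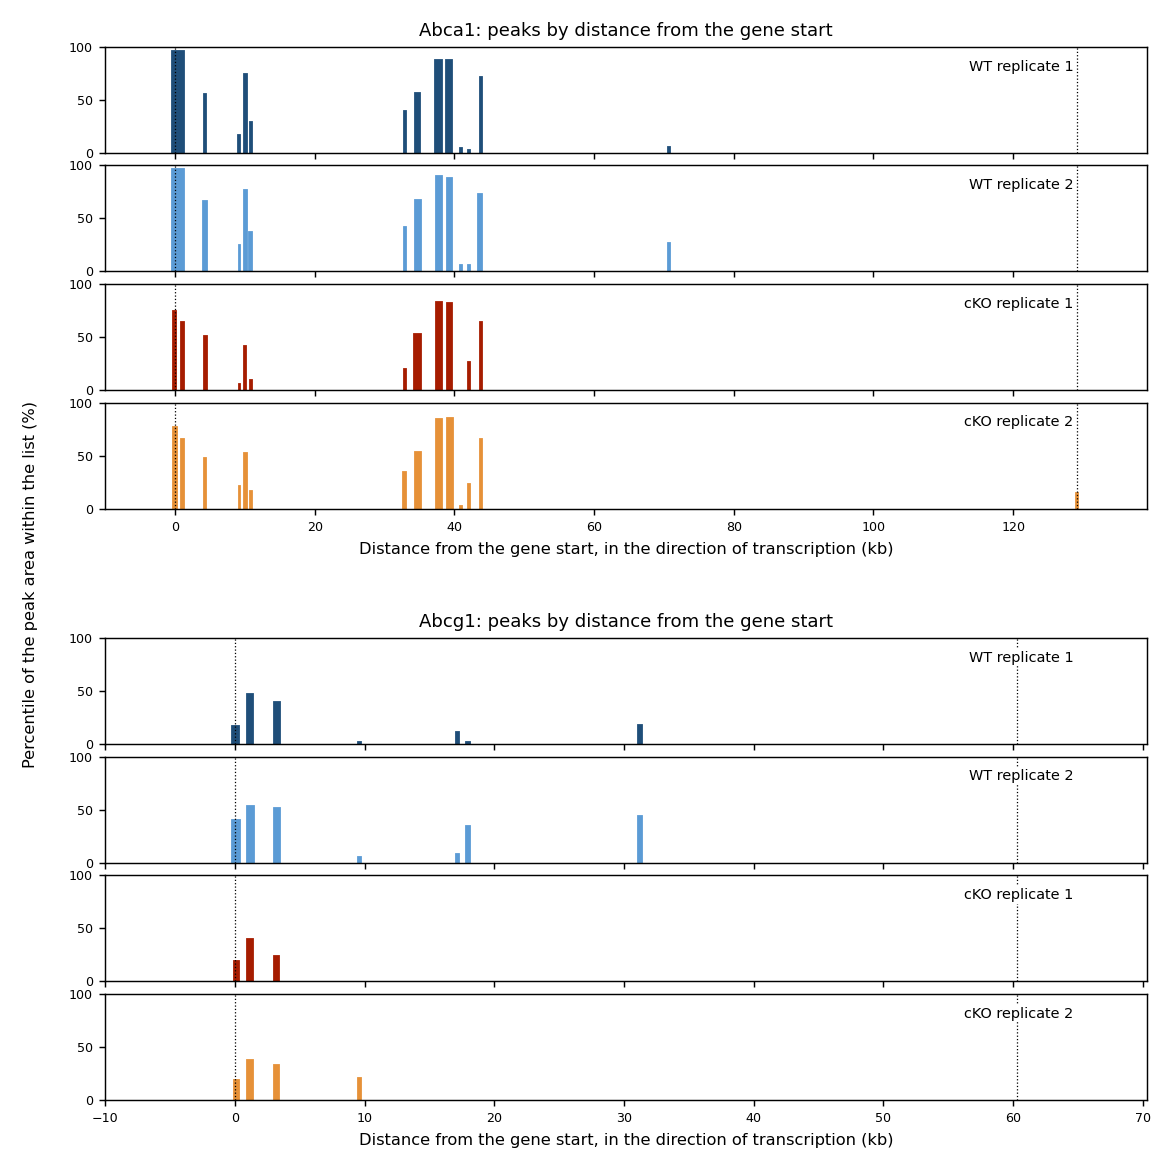
Called peaks at Abca1 and Abcg1 in each library by distance from the gene start (kb, in the direction of transcription; dotted lines at both gene ends), with the height giving the percentile of the peak area within its list (%). At Abca1, 11 of 14 regions had a peak in every library, while at Abcg1 the peaks at 17.2, 18.0 and 31.2 kb were in the WT lists alone.

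Apoe (ENSMUSG00000002985.16, chromosome 7, 19696109 to 19699188, reverse strand) had 4 regions, none of them lost. The region over its start (19698741 to 19700000) was at 67.2 and 75.3 in WT and at 80.6 and 71.8 in cKO. This compares unlike peaks, since cKO replicate 1 alone had a single merged peak. By summed area it was at 86.3 and 89.7 in WT and at 79.9 and 84.7 in cKO, so the difference of 4.99 points became -5.72. Without cKO replicate 1 the region came apart, and its parts went opposite ways by largest peak. The part over the start was at 54.8 in cKO replicate 2, a difference of -16.4 from WT. The upstream part was at 60.3 and 63.1 in WT and at 71.8 in cKO replicate 2. Both regions beyond the 3′ end, toward Apoc1, were absent from the list of cKO replicate 1. The farther of them (19693377 to 19694189), with the DR4 match, was at 48.8 and 62.7 in WT and at 17.1 in cKO replicate 2, and the nearer one (19694688 to 19695796) was at 17.0 and 39.7 in WT and at 16.7 in cKO replicate 2. The region 2.07 kb upstream overlapped between genotypes, at 17.0 and 39.4 in WT and at 23.0 and 34.6 in cKO.

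Nr1h3 (ENSMUSG00000002108.10, chromosome 2, 91184061 to 91202834, reverse strand) encodes LXRα, the LXR form found at high levels in liver and macrophages. It had 8 regions, several of which lie at the neighbouring genes Madd and Acp2. Within the gene, the intronic region at 91196527 to 91197226, also within the gene model Gm13783, was at 86.3 and 86.1 in WT and at 70.4 and 73.5 in cKO. Its difference of -14.3 points was the lowest at the receptor genes. The region over the start of its protein-coding transcripts (91194607 to 91195294) was at 46.6 and 60.9 in WT and at 45.2 and 48.3 in cKO, which overlap, and its difference of -6.96 points was 0.18 without WT replicate 2 and -14.1 without WT replicate 1. At the annotated 5′ end of the gene, where a processed transcript of Nr1h3 begins, a region shared with Acp2 (91202404 to 91203164) was at 74.4 and 74.1 in WT and at 71.4 and 75.5 in cKO.

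Nr1h2 (ENSMUSG00000060601.13, chromosome 7, 44549616 to 44553951, reverse strand) encodes LXRβ, the form found in most tissues. Both of its regions were higher in cKO. The region over its start (44553080 to 44554328) was at 51.3 and 63.8 in WT and at 85.6 and 87.4 in cKO, a difference of 29.0 points. Here the split ran the other way, with 2 peaks in each WT library and 1 in each cKO library. By summed area, the region was at 76.5 and 82.6 in WT and at 84.9 and 87.1 in cKO, a difference of 6.43 points without overlap. The other region (44548459 to 44549509), classed as promoter of the neighbouring Pold1, a DNA polymerase subunit gene, was at 89.1 and 90.3 in WT and at 93.5 and 94.1 in cKO.

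Srebf2 (ENSMUSG00000022463.8, chromosome 15, 82147181 to 82205379, forward strand) encodes SREBP-2, the main activator of cholesterol synthesis genes. Its start region (82146619 to 82147689) differed little, at 91.9 and 91.7 in WT and at 91.4 and 90.9 in cKO. Sites in its introns differed more. A region at 4.98 kb (82152001 to 82152310) was lost, at 27.9 and 26.5 in WT. A region at 51.4 kb (82198400 to 82198672) was at 17.6 and 35.3 in WT and at 0.0250 and 1.92 in cKO, a difference of -25.4 points that was -16.6 without WT replicate 2, and with lists of equal length it was no longer called in all 4. The region at 49.4 kb (82196396 to 82196807) was at 61.3 and 69.3 in WT, and at 54.3 and 56.9 in cKO.

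The weaker of these intronic sites lies 209 bp past the hairpin of Mir33 (82198122 to 82198190), the microRNA that this intron encodes and that is known to repress Abca1. Its mature sequence from RefSeq is printed with the seed, bases 2 to 8, in capitals, because it ties the Srebf2 locus to the efflux gene described first. The microRNA itself was not measured.
mmu-miR-33-5p: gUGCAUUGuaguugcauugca

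Srebf1 (ENSMUSG00000020538.15, chromosome 11, 60199089 to 60222581, reverse strand) encodes SREBP-1, which drives fatty acid synthesis genes and is itself an LXR target. The region over the start of its main coding transcript (60220281 to 60220949) was at 52.1 and 56.7 in WT and at 52.3 and 55.2 in cKO. Upstream of it, at the annotated 5′ end of the gene, a processed transcript begins that is not in the basic annotation. The region there, with the printed sterol element (60222505 to 60223292), was lower in cKO, at 75.1 and 76.4 in WT against 66.2 and 69.6. At Mylip (ENSMUSG00000038175.10, chromosome 13, 45389742 to 45412022, forward strand), the start region (45389279 to 45390206) was at 85.2 and 86.2 in WT and at 84.2 and 85.2 in cKO, with overlap. An intronic site 2.07 kb from the gene start (45391551 to 45392071) was lower, at 65.0 and 61.5 in WT and at 48.6 and 58.7 in cKO.

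**Figure D4:**
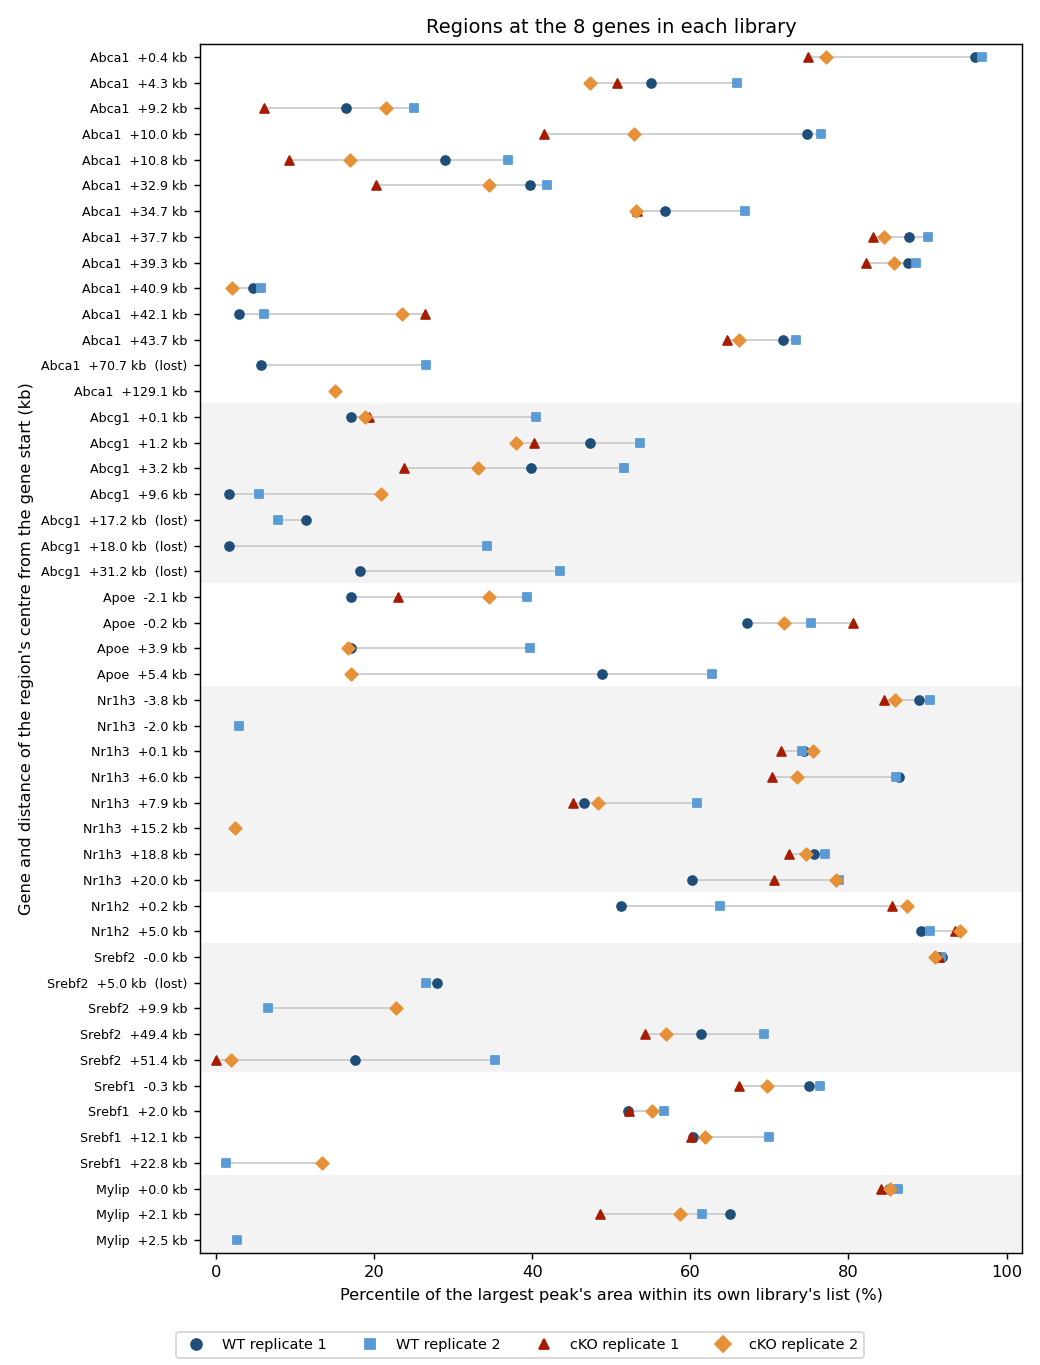
Percentile (%) of the largest peak of each of the 47 regions in each library, ordered by gene and by the distance of the region's centre from the gene start (kb, positive in the direction of transcription). Markers show the 4 libraries, lines join the lowest and highest values, and a missing marker means that no peak was called; cKO markers lie to the left of both WT markers in 19 of the 32 regions with 4 markers.

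Regions over start sites were counted apart from those away from them, and the difference between the sets was not tested. Start sites here are those of the basic GENCODE annotation, so that the region at the annotated 5′ end of Srebf1 counts as having none. Of the 12 shared regions that hold such a start site, 3 were lower and 2 were higher in cKO, with a median difference of -0.717 points. Over all shared regions with a start site, 33.5% were lower and the median was -0.406. Of the 20 shared regions without a start site, 16 were lower and 1 was higher, with a median of -9.12, against 35.7% lower and a median of -1.85 over all such regions. Base composition differed as well: the median GC content of the windows was 52.8% in the 19 lower regions and 58.1% in the other 13 shared ones, against 49.5% over all shared regions. Its part in the differences was not tested.

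To obtain 1 value per gene, the areas of all peaks at a gene were summed and given per 1000000 units of the list total. Inside the window this value does not depend on how peaks were split, but a peak that crosses the window's end counted whole. Across 15090 genes with area in all 4 lists, 34.1% were lower in both cKO libraries than in both WT libraries and 37.2% were higher, and the median log2 difference was 0.02. Of the 8 genes, 7 were lower and 1 was higher, each with p = 0.33 in the two-sided exact permutation test. Abcg1 had 44.3 and 51.6 in WT and 22.3 and 23.9 in cKO. On the log2 scale, WT had a mean of 5.58 ± 0.16 (SD, n = 2), and cKO a mean of 4.53 ± 0.07 (SD, n = 2). The log2 difference of -1.05 was lower than that of all but 1.34% of the 15090 genes.

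Apoe had 57.0 and 63.7 in WT and 35.8 and 45.9 in cKO, a log2 difference of -0.57. The gene body alone, without the regions beyond its 3′ end, gave -0.09, and a flank of 25 kb gave -0.04. In the gene body alone the genotypes overlapped, with 18.7 and 20.1 in WT and 29.3 and 11.3 in cKO. There the merged peak of cKO replicate 1 counted whole, while the upstream peaks of the other libraries were left out. Abca1 had 232.7 and 223.4 in WT and 180.8 and 173.0 in cKO, a log2 difference of -0.37. A flank of 25 kb moved it to -0.16 and that of Abcg1 to -0.66. With 10 kb on either side, the efflux genes had the lowest log2 differences of the 8, but this order did not hold with the gene body alone or with 25 kb.

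Srebf2 had 71.4 and 70.2 in WT and 63.3 and 59.7 in cKO, a log2 difference of -0.20 that was -0.08 with a flank of 25 kb and -0.05 with peaks above the median area of their list. Srebf1 had 51.7 and 52.9 against 47.4 and 46.7, a difference of -0.15 that was -0.41 in the gene body alone. That value rests on WT replicate 2, the only library whose peak at the annotated 5′ end reached into the gene body. The libraries of the genotypes overlapped there. Mylip had 49.9 and 45.8 in WT and 45.1 and 42.6 in cKO, a difference of -0.13, which was -0.06 without WT replicate 1 and -0.31 with peaks above the median area. Nr1h3 had 149.0 and 143.2 in WT and 135.3 and 133.3 in cKO, a difference of -0.12 that was -0.22 in the gene body alone and -0.23 with peaks above the median area. Nr1h2 was the exception, with 62.5 and 60.4 in WT and 86.7 and 80.3 in cKO, a log2 difference of 0.44. More than 9 in 10 genes (92.3%) had a lower difference than Nr1h2.

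**Figure D5:**
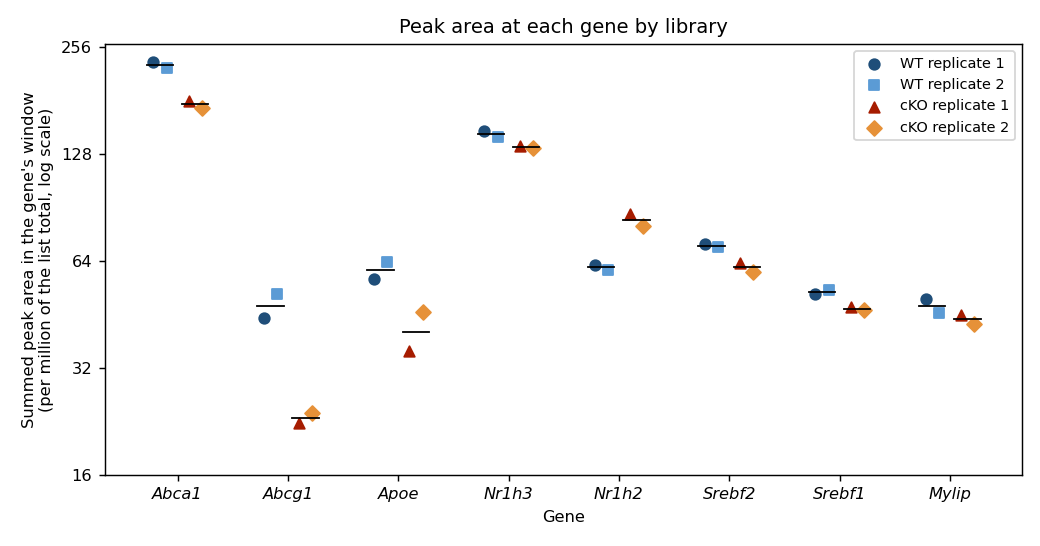
Summed peak area of each gene body and the 10 kb on either side, per 1000000 units of the list total (log scale), in each library, with bars at the mean of each genotype on the log scale. Both cKO values lie below both WT values at 7 genes, with the widest gap at Abcg1 (44.3 and 51.6 in WT, 22.3 and 23.9 in cKO), and above them at Nr1h2.

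Other genes of the pathway were described from a list of 53 genes, which had 270 regions. Among 22 genes of LXR response and efflux, 48 of 92 shared regions (52.2%) were lower in cKO and 13 (14.1%) were higher, 14 of 138 regions were lost and 2 gained, and the median difference was -3.99 points. Among 31 genes of sterol synthesis and uptake, 35 of 90 shared regions (38.9%) were lower and 25 (27.8%) were higher, 14 of 132 regions were lost and 6 gained, and the median was -0.903. By summed area, 13 of the 22 genes were lower and 5 higher, and 8 of the 31 were lower and 10 higher. Over all regions these shares were 35.1% lower, 22.2% higher, 7.25% lost and 3.72% gained, and over all genes 34.1% lower and 37.2% higher in summed area, so the counts of the synthesis and uptake list lay closer to the background than those of the LXR and efflux list, except for lost regions. Of the 138 regions, 4 also lie at Apoe, through its neighbour Apoc1.

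Of the 53 genes, 16 had a lost region, and 28 of the 270 regions were lost (10.4%, against 7.25% of all regions). The 8 gained regions were 2.96% of the 270, against 3.72%. The share of all genes with a lost or gained region was not counted, so these gene counts have no background. By the highest-ranked lost region of each gene, the first were Scap, the escort protein of the SREBPs (46.8 and 46.4 in WT), Pmvk, an enzyme of the mevalonate pathway (43.3 and 40.7), and Lrp1, a lipoprotein receptor (31.0 and 46.1), which had 4 lost regions. The next genes were Rxra, a partner of the LXRs (19.8 and 46.6), Soat1, which esterifies cholesterol (24.4 and 35.1), and Npc2, Cd36 and Acaca, with mean percentiles from 24.9 to 26.1. At Rxra, 6 of 13 regions were lost and all 3 shared regions were lower, and the log2 difference in summed area was -1.46. Gained regions were found at 7 genes, the first near Msr1, a scavenger receptor for modified LDL (44.6 and 58.4 in cKO), near Pmvk (39.5 and 57.8, in an exon of Pbxip1), and at Nceh1, a cholesterol ester hydrolase (39.2 and 46.3). Cd36, Npc2, Ggps1 and Idi1 had gained regions with mean percentiles from 10.1 to 32.9. Pmvk, Npc2 and Cd36 thus had both gained and lost regions.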

How the data were processed

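ATAC-seq libraries of WT and cKO BMDMs (2 each) were grouped by their titles. Per the labels and methods, the authors aligned paired reads to mm10 with Bowtie2 2.5.1 and called peaks per library with Genrich at default settings. Read filters, duplicate removal and a shift of read ends are not given in the sources used here. The authors' deposited signal column holds the peak area, the column ranked here. The deposited −log10 p-value at the summit was used only as an alternative ranking. The deposited score column, a limited form of the area, and the authors' q-value column, −1 throughout, were not used, and the summit offset placed the sequence windows. No column of unmapped samples was present.

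Peaks overlapping by at least 1 bp were merged across the 4 lists into regions (Python 3.11.15, pandas 2.3.3, numpy 2.4.6). Genes and start sites came from the basic annotation of GENCODE M21, and a promoter ran from 1 kb before to 100 bp after a start. Gained, lost, higher and lower are counts with no test, set beside the same counts over all regions, and summed areas were compared by two-sided exact permutation tests (scipy 1.17.1). SDs measure only the spread between these libraries. The permutation p-value does not measure spread: it is the share of the 6 assignments with a difference at least as large. The counting steps were tested on simulated data. Counting intervals could not be given, since depths are unknown. Regions described are those over start sites, all gained and lost ones, and shared ones without overlap that differed by at least 10 percentile points. Other regions described were chosen after their values were seen. Pathway genes are those with a gained or lost region, at most 8 in each direction by mean percentile. The members and lists were chosen with earlier results of these data known. Alternatives were a stricter area threshold, lists of equal length, calls by cover of at least 50%, other flanks, other rankings, a replicate block and leaving out each library. The wider motif searches were added after seeing the data.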

Additional observations from a re-analysis of the deposited data

How the results depend on the processing

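At the 17 regions named by rule and in the summed areas of the 8 genes, no difference without overlap changed sign under the alternatives that gave a value; the other regions were not followed singly. Gained regions at the 8 genes numbered 0, but 1 with a flank of 25 kb and 1 with lists of equal length, and from 0 to 2 when single libraries were left out (2 without cKO replicate 1). Lost regions numbered 5, but 2 with equal lengths, 0 with peaks above the median area of their list, and from 5 to 9 leaving out a library (9 without cKO replicate 2). Higher regions numbered 3, but 5 with 25 kb, 5 when ranked by the −log10 p, and from 3 to 8 leaving out a library (8 without WT replicate 2, 6 without cKO replicate 1). Lower regions numbered 19 of 32 shared ones (against 35.1% of all shared regions) and from 19 to 27 leaving out a library. With the stricter threshold they numbered 11 of 19 shared ones (against 36.5%). The median difference of efflux genes ranged from -14.1 (without WT replicate 1) to -4.93, and that of synthesis and uptake genes from -8.16 to -3.22, and was -2.24 with equal lengths. In the list of 53 genes, gained regions numbered 8, but 4 in gene bodies alone, 16 with equal lengths and from 8 to 19 leaving out a library (19 without cKO replicate 1, 16 without WT replicate 2, 15 without cKO replicate 2). Lost regions there numbered 28, but 17 in gene bodies alone, 7 with the stricter threshold and from 28 to 46 leaving out a library (46 without WT replicate 1). Over all regions, the shares moved too: leaving out a library, lost regions were 14.4% without WT replicate 1 and 13.39% without cKO replicate 2, gained ones 9.16% without cKO replicate 1, higher ones 41.4% without WT replicate 2 and 38.7% without cKO replicate 1, and lower ones 54.5% without WT replicate 1 and 56.6% without cKO replicate 2. Fewer peaks enter with the stricter threshold and with equal lengths; the other causes were not tested.

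The replicate numbers are not stated to pair the libraries. Deviations of same-numbered libraries from their group means correlated at 0.295 over 44820 shared regions, with 2 pairs. With the replicate block, gained and lost regions stayed at 0 and 5, higher at 3 and lower was 23 (against 33.3% higher and 48.7% lower of all shared regions), with 8 and 28 in the list of 53 genes. In summed area, Abcg1 had no value with the stricter threshold, where 10 of the 17 regions named by rule were also not called in all 4 lists, as 2 were not with equal lengths. The lists' limit and unknown depth leave weak sites uncertain.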
